A study of Homo sapiens with 6 samples.

Results

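The transcripts of 9 genes that build and control the hypoxia-inducible factors (HIFs) were followed in T3M4, an established human pancreatic ductal adenocarcinoma cell line. They were taken by symbol, from a list of 9 names, out of the 58735 genes of a deposited count table, and all 9 were found and passed the filter on low counts among 16655 genes tested. The study had 6 untreated libraries of near-confluent cells in serum-containing medium. Of these, 3 carry WT in their titles and a genotype label of MUC16 expressing, and 3 carry the genotype label MUC16 knockout. The sources used here do not say how the knockout was made, whether it is 1 clone or a pool, or whether the replicates are separate cultures. If they are not, the p-values measure only technical spread. MUC16 is a membrane-tethered mucin. The labels set up a comparison of cells with and without it, but its transcript, given below, was higher under the knockout label.

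Each HIF is a pair of basic helix-loop-helix PAS proteins, an oxygen-controlled alpha subunit (HIF1A, EPAS1 or HIF3A) and the constitutive partner ARNT. With oxygen present, the prolyl hydroxylases EGLN1, EGLN2 and EGLN3, also called PHD2, PHD1 and PHD3, mark alpha subunits. VHL, the substrate-recognition part of a ubiquitin ligase, then binds the hydroxylated protein and sends it for degradation. HIF1AN, known as FIH, is an asparagine hydroxylase that blocks the contact between the alpha subunit and its coactivators. Because this control acts on proteins, transcript levels say nothing of how much alpha subunit was present or hydroxylated. EGLN1 and EGLN3 are themselves well-known HIF target genes, so the pathway feeds back on its own sensors.

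The 3 EGLN promoters are shown because their transcripts diverged, and EGLN1 and EGLN3 are HIF targets. Each sequence is the 250 bases before a RefSeq gene start on GRCh38.p14, 5′ to 3′ on the gene's strand. Capitals mark ACGTG or GCGTG, the core of the hypoxia response element, on either strand; a match on the opposite strand reads CACGT or CACGC here. The windows are chr1:231422288-231422537 (minus strand) for EGLN1, chr19:40798941-40799190 (plus strand, the upstream of its 2 RefSeq starts) for EGLN2 and chr14:33951075-33951324 (minus strand) for EGLN3.
EGLN1: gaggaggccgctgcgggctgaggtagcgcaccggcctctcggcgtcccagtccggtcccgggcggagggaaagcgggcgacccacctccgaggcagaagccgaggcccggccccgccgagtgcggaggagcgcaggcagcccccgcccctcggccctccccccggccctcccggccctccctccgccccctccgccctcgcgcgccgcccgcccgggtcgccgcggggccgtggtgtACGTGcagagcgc
EGLN2: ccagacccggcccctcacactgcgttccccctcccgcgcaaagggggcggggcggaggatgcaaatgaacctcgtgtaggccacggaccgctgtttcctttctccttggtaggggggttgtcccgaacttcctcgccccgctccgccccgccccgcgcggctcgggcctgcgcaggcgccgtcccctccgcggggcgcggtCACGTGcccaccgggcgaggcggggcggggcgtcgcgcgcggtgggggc
EGLN3: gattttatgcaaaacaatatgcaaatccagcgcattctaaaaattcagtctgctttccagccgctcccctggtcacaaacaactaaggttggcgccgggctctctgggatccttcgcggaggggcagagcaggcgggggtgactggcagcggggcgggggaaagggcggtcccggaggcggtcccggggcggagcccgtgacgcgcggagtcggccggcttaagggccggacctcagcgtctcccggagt
EGLN1 held ACGTG with its first letter 13 bases before the start. EGLN2 held CACGTG, where the matches of both strands overlap, and the EGLN3 window held no match. RefSeq promoters were found for 8 of the 9 members, all but VHL, and gave 12 windows. A match occurred in 5 of these windows, against 43.2% of the 35116 windows of the whole table. A match describes these letters only, and sequence outside the windows was not searched. The RefSeq starts are not the outer ends of the counted genes. The windows of EGLN1 and EGLN3 lie wholly, and that of EGLN2 partly, inside the gene spans given below.

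Library totals ran from 19088927 to 28612621 counts. The targeted transcript went against its label: MUC16 counts were 98, 144 and 90 under the WT label and 292, 504 and 323 under the knockout label. Directions below are therefore those of the labels only. The epithelial markers EPCAM, KRT8, KRT18, KRT19 and CDH1 were all expressed, and their summed level was 2887 to 2943 CPM (counts scaled to a common library size with TMM factors) under the WT label and 4730 to 4953 under the knockout label. The 4 leukocyte markers summed to at most 0.467 CPM in any library. Of 5 fibroblast markers, COL1A1 gave most of a sum of 30.6 to 34.1 and 42.4 to 46.6 CPM, with COL1A2 at 0 counts in all libraries labelled WT and at most 1 in the others. Of 4 endothelial markers, PECAM1 gave most of a sum of 13.4 to 16.6 and 19.7 to 22.0 CPM, with KDR at 0 or 1 count. The part of these shifts in the results below was not tested.

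Of the 9 members, 7 passed the test, 5 higher (EGLN3, EGLN1, HIF1A, ARNT and VHL) and 2 lower (EPAS1 and EGLN2) under the knockout label. HIF1AN and HIF3A did not pass. Over all genes tested 52.6% passed (edgeR's quasi-likelihood test with Benjamini-Hochberg adjustment, threshold 0.05), 26.7% higher and 25.9% lower, so a count of 7 in 9 is to be read against a background in which most genes differed. The 3 values of each group did not overlap for 8 of the 9 members and for 59.0% of all genes tested. Only EGLN3 changed by at least 2-fold, as did 8.87% of all genes tested, and the other 6 called members changed by less than 1.5-fold. The median absolute log2 fold change was 0.28 over the members and 0.28 over all genes tested. The plot of members by library shows these sizes on linear axes. In bulk RNA, fewer cells with a transcript and less of it per cell cannot be told apart.

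**Figure D1:**
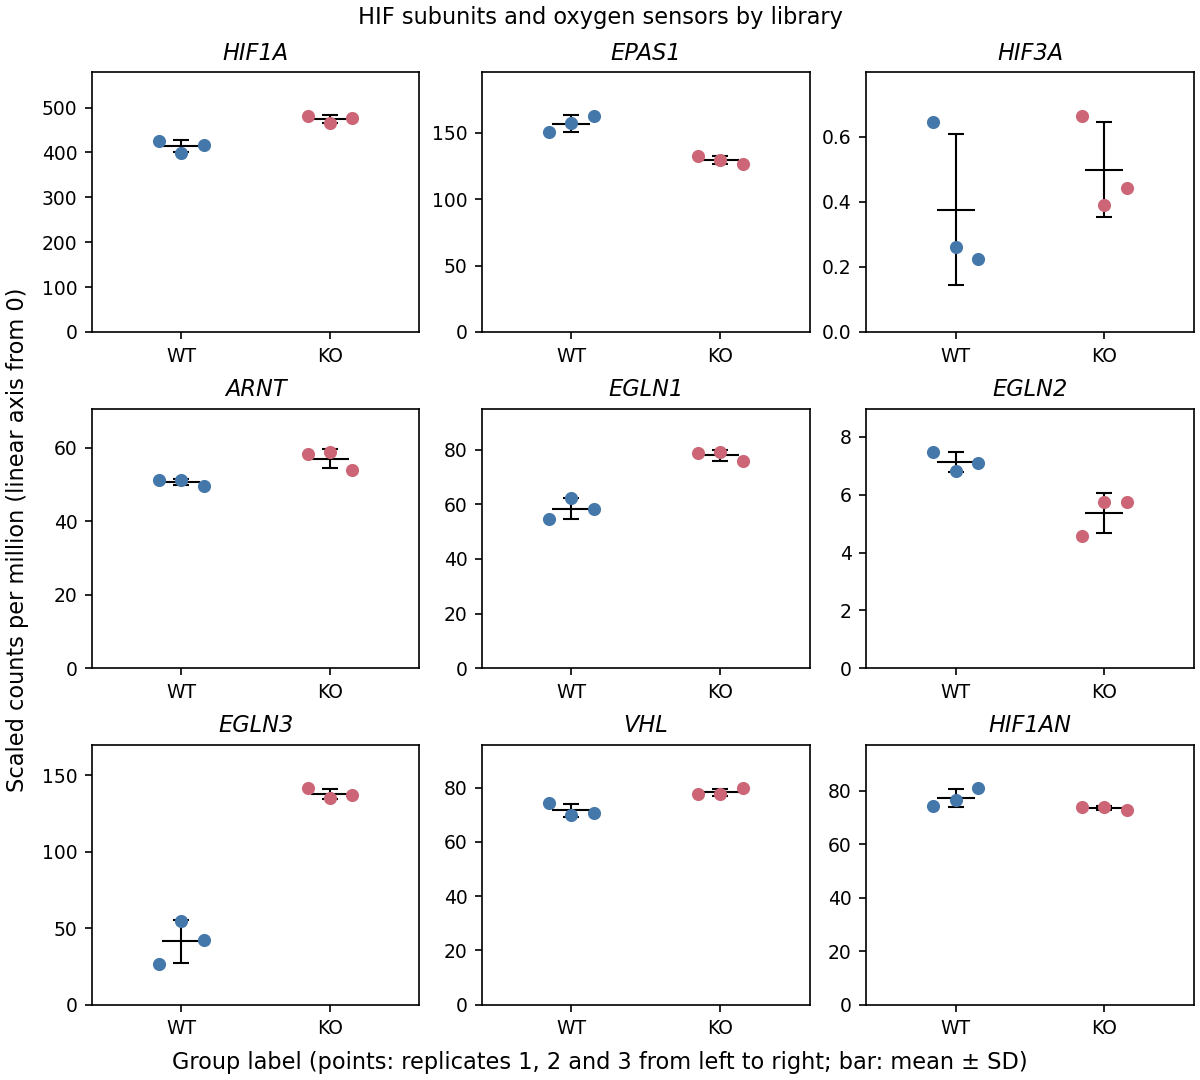
Scaled CPM (y axis, linear from 0, a scale for each gene) of the 9 members in the 3 libraries labelled WT and the 3 labelled KO for knockout. Points are libraries and bars are mean ± SD; EGLN3 stands at 26.9 to 54.8 under the WT label and 135.1 to 141.5 under the knockout label, while most other members move little.

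EGLN3 (ENSG00000129521, PHD3) is a prolyl hydroxylase whose transcript is strongly induced by low oxygen in many cells. Its level was 26.9, 54.8 and 42.6 CPM in the WT-labelled libraries and 141.5, 135.1 and 137.3 CPM in the knockout-labelled ones. The libraries labelled WT were uneven, with the highest at 2.04 times the lowest, whereas those labelled knockout lay within 1.05 times of each other. Even so, the lowest value under the knockout label was 2.47 times the highest under the WT label. The means were 41.4 ± 14.0 and 138.0 ± 3.22 CPM (mean ± SD of 3 libraries each). The log2 fold change of EGLN3 was 1.74 ± 0.12 (SE, edgeR quasi-likelihood, adjusted p = 5.02e-11). The 95% interval of the fold was 2.79 to 3.98. This log2 fold change exceeded in size 97.5% of those of all genes tested, and the authors' deposited table gives 1.73. With each library left out in turn it ran from 1.49, without WT replicate 1, to 1.998, without WT replicate 2.

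EGLN3 spans GRCh38 chromosome 14 from 33924231 to 34462774 on the minus strand. GENCODE release 29 gives it 11 transcripts, of which 6 are non-coding and lie wholly upstream of the start of the principal coding transcript at 33951081. Of its 7359 exonic bases, 67.8% lie within the span of the principal coding transcript, so the count of EGLN3 can include reads of the upstream transcripts. The antisense gene EGLN3-AS1 lies within the span without sharing exonic bases and had 0, 1 and 0 counts under the WT label and 6, 4 and 4 under the knockout label. SPTSSA, also inside the span on the same strand and with no shared exonic base, had 806 to 1432 counts in the 6 libraries.

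EGLN1 (ENSG00000135766, chromosome 1, 231363751 to 231425044, minus strand), or PHD2, is regarded as the main oxygen sensor acting on HIF1A. Its level was 54.5, 62.4 and 58.4 CPM in the WT-labelled libraries and 78.8, 79.2 and 75.7 CPM in the knockout-labelled ones. The groups did not overlap, and the step was much smaller than for EGLN3. The log2 fold change of EGLN1 was 0.41 ± 0.05 (SE, edgeR, adjusted p = 7.87e-07), or 1.33-fold.

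EGLN2 (ENSG00000269858, chromosome 19, 40798996 to 40808433, plus strand), or PHD1, had the lowest counts of the 3 hydroxylases and moved the other way. It had 7.48, 6.80 and 7.08 CPM under the WT label and 4.55, 5.76 and 5.74 CPM under the knockout label. The lowest library was knockout replicate 1, and without it the call was lost (log2 fold change -0.31, adjusted p = 0.0678). With all libraries the log2 fold change of EGLN2 was -0.40 ± 0.13 (SE, edgeR, adjusted p = 0.0124). It rests on 89 to 197 counts per library. EGLN2 shares 30.6% of its exonic bases with RAB4B-EGLN2, a readthrough gene on the same strand that had 0 or 1 count in each library. How reads in shared exons were assigned is not given in the sources used here, so the level of EGLN2 is uncertain.

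The mix of the 3 hydroxylase transcripts, each divided by its gene length, differed between the groups. EGLN3 made up 29.7%, 43.6% and 38.8% of the summed EGLN level in the WT-labelled libraries and 62.5%, 60.9% and 62.3% in the knockout-labelled ones. At whole gene lengths, EGLN1 exceeded EGLN3 in every library labelled WT, and EGLN3 exceeded EGLN1 in every library labelled knockout. This order does not use EGLN2, but it depends on the length taken for EGLN3. Only 67.8% of the 7359 exonic bases of EGLN3 lie within the span of its principal coding transcript. A shorter length would raise EGLN3, and so its share, in every library. The order under the WT label was not tested at such a length. Per length, EGLN3 was 0.49, 0.87 and 0.72 times EGLN1 under the WT label. Under the knockout label it was 1.77, 1.69 and 1.79 times EGLN1. The level of EGLN2 is uncertain, as given above, and all 3 shares carry this uncertainty. The share of EGLN1 was 55.1% ± 5.46 under the WT label and 35.4% ± 0.703 under the knockout label, and that of EGLN2 was 7.51% ± 1.61 and 2.69% ± 0.38 (SD, n = 3 each). Each of these 3 shares had p = 0.1 in a two-sided exact permutation test (0.12 adjusted over the 6 shares tested), the smallest p that 3 against 3 libraries allow. The plot of shares shows the change of order at whole gene lengths.

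**Figure D2:**
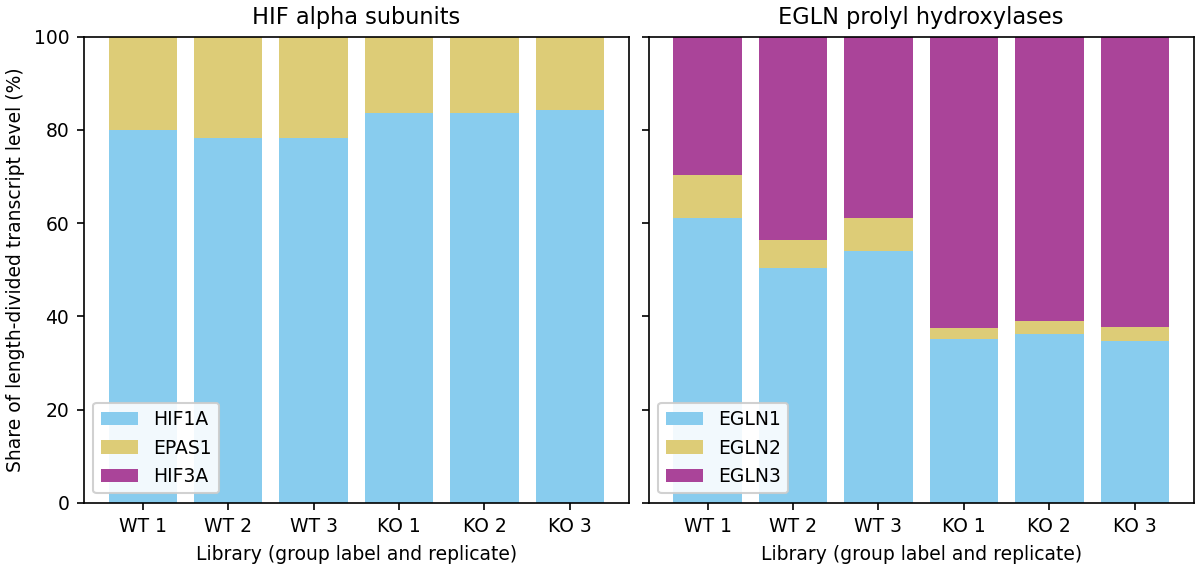
Share (y axis, %) of each gene in the summed length-divided level of the HIF alpha subunits (left) and of the EGLN hydroxylases (right) in each of the 6 libraries (x axis). HIF3A is too low to be seen. EGLN3 rises from 37.4% on average under the WT label to 61.9% under the knockout (KO) label. The EGLN shares take EGLN2 as counted, and its level is uncertain. They also use the whole gene length of EGLN3.

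HIF1A (ENSG00000100644, chromosome 14, 61695513 to 61748259, plus strand), the broadly expressed alpha subunit, was 426.5, 399.6 and 416.0 CPM in the WT-labelled libraries. In the knockout-labelled ones it was 482.2, 465.4 and 475.7 CPM. The groups did not overlap and the step was small, a log2 fold change of 0.20 ± 0.04 (SE, edgeR, adjusted p = 0.000206) or 1.15-fold. Its antisense neighbour HIF1A-AS1 shares 117 exonic bases with it, 2.27% of HIF1A, and had at most 35 counts in a library against 9283 or more for HIF1A.

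EPAS1 (ENSG00000116016, chromosome 2, 46293667 to 46386703, plus strand) encodes HIF-2 alpha, prominent in endothelium, kidney and some carcinomas. It was 150.8, 157.0 and 162.9 CPM in the WT-labelled libraries and 132.8, 129.1 and 126.3 CPM in the knockout-labelled ones. Unlike HIF1A, every library labelled knockout lay below every library labelled WT. The log2 fold change of EPAS1 was -0.28 ± 0.04 (SE, edgeR, adjusted p = 1.08e-05), or 0.82-fold.

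HIF3A (ENSG00000124440, chromosome 19, 46297046 to 46343433, plus strand), whose splice forms include inhibitors of the other alpha subunits, was barely detected. It had 17, 7 and 5 counts under the WT label and 13, 10 and 13 under the knockout label, and these ranges overlap. The log2 fold change of HIF3A was 0.35 with a 95% interval from -0.64 to 1.34 (edgeR, adjusted p = 0.563), an interval that includes a 2-fold rise, so no change was detectable at this depth.

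The opposite steps of HIF1A and EPAS1 tilted the alpha subunit transcripts further toward HIF1A. Per gene length, HIF1A was 4.01, 3.61 and 3.62 times EPAS1 in the WT-labelled libraries and 5.15, 5.11 and 5.34 times in the knockout-labelled ones. As a share of the 3 alpha subunits, HIF1A went from 78.9% ± 0.967 to 83.8% ± 0.32 (SD, n = 3 each, exact permutation p = 0.1, 0.12 adjusted over the 6 shares). EPAS1 went from 21.1% ± 0.993 to 16.1% ± 0.317, with the same p by the exact permutation test.

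ARNT (ENSG00000143437, chromosome 1, 150809705 to 150876768, minus strand), the shared partner of the alpha subunits, was 51.3, 51.2 and 49.7 CPM in the WT-labelled libraries. In the knockout-labelled ones it was 58.3, 58.9 and 54.1 CPM. The groups did not overlap, and the log2 fold change of ARNT was 0.17 ± 0.05 (SE, edgeR, adjusted p = 0.0122). It no longer passed once WT replicate 3 (adjusted p = 0.062) was left out, or knockout replicate 1 (0.0575).

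VHL (ENSG00000134086, chromosome 3, 10141008 to 10152220, plus strand) was 74.3, 70.0 and 70.7 CPM under the WT label and 77.6, 77.5 and 79.8 CPM under the knockout label. This was the smallest step that passed, with a log2 fold change of 0.13 ± 0.05 (SE, edgeR, adjusted p = 0.0275). The call was lost when WT replicate 2 (adjusted p = 0.111), WT replicate 3 (0.109), knockout replicate 1 (0.0614) or knockout replicate 3 (0.0666) was left out, with DESeq2 (0.0956) and with no filter (0.104). In the authors' deposited table the adjusted p of VHL is 0.0927.

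HIF1AN (ENSG00000166135, chromosome 10, 100529072 to 100559998, plus strand) was 74.3, 76.5 and 81.0 CPM under the WT label and 74.2, 74.0 and 72.8 CPM under the knockout label. Its groups were apart only by the gap from 74.26 CPM in WT replicate 1 to 74.15 CPM in knockout replicate 1. The log2 fold change of HIF1AN was -0.07 with a 95% interval from -0.17 to 0.03 (edgeR, adjusted p = 0.251). NDUFB8, on the opposite strand, shares 2.33% of the exonic bases of HIF1AN and had 84 to 132 counts against 1449 or more.

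**Figure D3:**
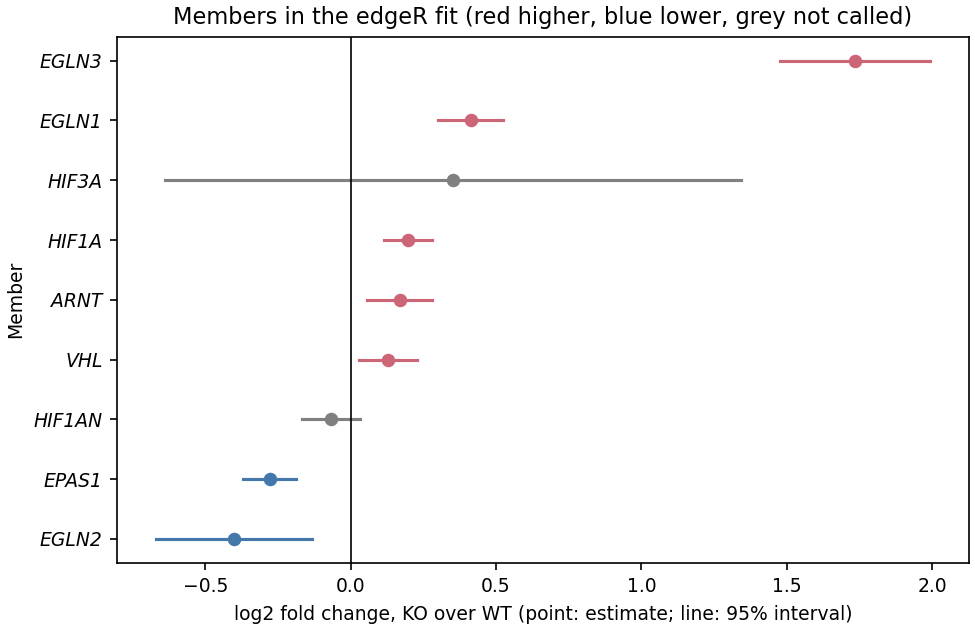
Log2 fold change (x axis, KO for knockout over WT, by label) of the 9 members, ordered by size on the y axis; points are edgeR estimates and lines 95% intervals. EGLN3, at 1.74, stands apart from the rest, and the interval of HIF3A is the widest.

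Levels can be ordered across members only per length, as scaled CPM per kilobase of gene length. In the WT-labelled libraries, HIF1A led with 80.4 ± 2.63, followed by EPAS1 at 21.5 ± 0.832 and VHL at 17.0 ± 0.545 (SD, n = 3 each). EGLN1 (8.04 ± 0.542) and ARNT (7.79 ± 0.135) were not separable by their libraries, nor were EGLN3 (5.63 ± 1.90) and HIF1AN (5.54 ± 0.247). EGLN2 (1.08 ± 0.0515) and HIF3A (0.0450 ± 0.0279) came last. In the knockout-labelled libraries HIF1A was again the highest at 92.1 ± 1.64, while EGLN3 moved from the sixth place to the second at 18.8 ± 0.438, overlapping VHL at 18.6 ± 0.307. EPAS1 (17.7 ± 0.446), EGLN1 (10.7 ± 0.263), ARNT (8.76 ± 0.409), HIF1AN (5.28 ± 0.0516), EGLN2 (0.813 ± 0.105) and HIF3A (0.0597 ± 0.0175) followed, each apart from the next. Per length, ARNT thus stood well below HIF1A in both groups. These levels use the whole gene model, which for EGLN3 includes upstream non-coding exons, so the places of EGLN3 depend on that length. The level of EGLN2, and so its place, is uncertain because of the exons it shares with RAB4B-EGLN2.

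The genes whose log2 CPM over the 6 libraries was most like that of EGLN3 were SGSH, CTBS and SECTM1, with Pearson r of 0.9996, 0.9992 and 0.9992. The 3 most like EGLN1 were TCP11L2 (0.9996), NDRG1 (0.9989) and RIPK4 (0.9983). NDRG1 is a hypoxia-induced gene, with 5448, 8378 and 5586 counts under the WT label and 12871, 18453 and 17311 under the knockout label. It is also one of the HIF target genes taken up below, and the other genes named here are not. Pearson r leaves out the size of a change. The log2 fold changes of SGSH, CTBS and SECTM1 were 0.63, 0.59 and 1.16, against 1.74 for EGLN3. Those of TCP11L2, NDRG1 and RIPK4 were 1.12, 1.36 and 0.49, against 0.41 for EGLN1. These likenesses are descriptions over 6 points that fall in 2 groups. Of 10815 protein-coding genes averaging 100 counts or more, 1106 had r above 0.95 with EGLN3 and 1221 with EGLN1.

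Most HIF target genes, like EGLN3, had their highest WT-labelled value in replicate 2, but the median target was far less uneven than EGLN3. Of 31 target genes outside the members, 24 had their highest WT-labelled value in replicate 2, 2 in replicate 1 and 5 in replicate 3, whereas replicate 2 was the highest for 33.4% of all genes tested. EGLN3 and EGLN1 were likewise highest in WT replicate 2 and lowest in WT replicate 1. So was MUC16, which is not on the target list, at 3.72, 5.35 and 4.03 CPM in WT replicates 1, 2 and 3. HIF1A had the reverse order, with its lowest WT-labelled value in replicate 2. Under the knockout label, 14, 11 and 6 of the targets were highest in replicates 1, 2 and 3. The shares of all genes tested were 30.2%, 34.5% and 35.3%. On the log2 scale, the median target lay -0.08, 0.07 and -0.01 from the WT mean in WT replicates 1, 2 and 3, and EGLN3 lay -0.56, 0.46 and 0.10 from its own. In the knockout-labelled libraries the median target lay 0.74, 0.73 and 0.71 above that mean. For the median target, the WT replicates thus differed from each other by much less than the labels did.

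**Figure D4:**
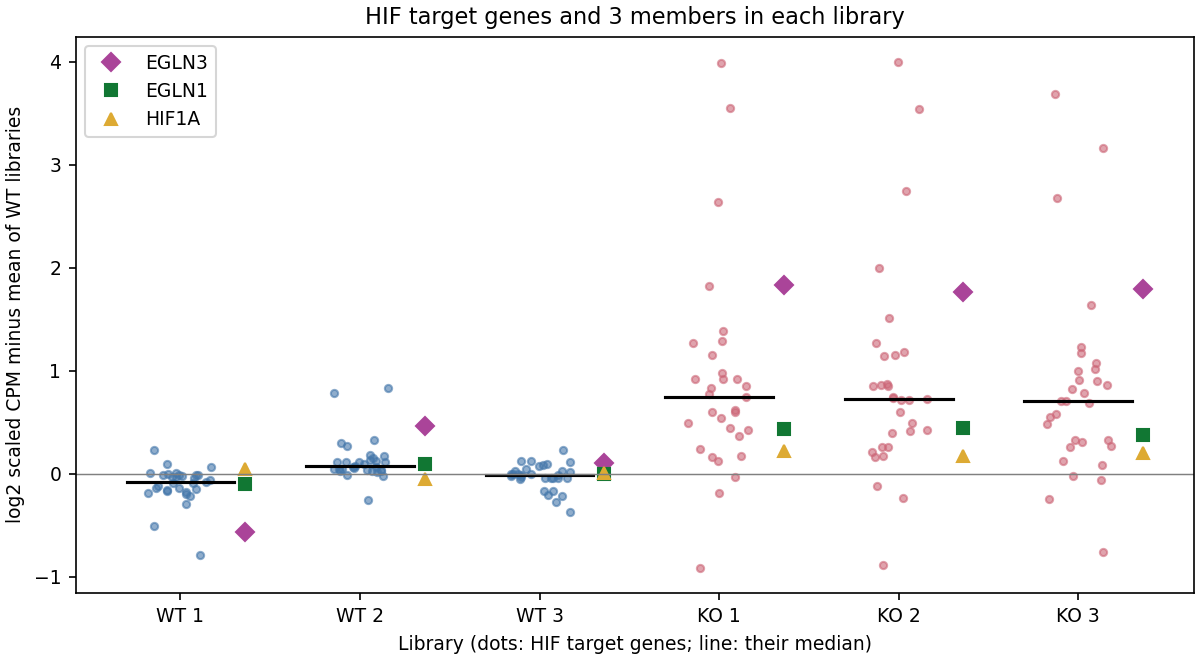
Log2 scaled CPM minus the mean of the libraries labelled WT (y axis) in each of the 6 libraries (x axis); dots are 31 HIF target genes, black lines their medians, and the diamond, square and triangle are EGLN3, EGLN1 and HIF1A. The median is 0.07 in WT replicate 2, -0.08 in WT replicate 1 and 0.71 to 0.74 in the knockout-labelled libraries (KO).

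Of those 31 HIF target genes, 25 were higher and 2 lower under the knockout label, and 4 were not called. Their median log2 fold change was 0.73 beside 0.00 for all genes tested, of which 26.7% were higher and 25.9% lower. The 2 lower targets were ADM (-0.86) and VEGFA (-0.22), named after their values were seen. The largest changes were in ANGPTL4 (3.72), a lipoprotein lipase inhibitor, and the carbonic anhydrase CA9 (3.28). SLC2A3 (2.65), a glucose transporter, and PFKFB4 (1.82), which sets the level of a glycolysis activator, came next. ANGPTL4 and CA9 were low and uneven under the WT label, with 21, 66 and 30 counts and 14, 35 and 14 counts. EGLN3, at 1.74, lay within its error of PFKFB4 and below the other 3, and EGLN1, at 0.41, lay below the median of the targets. The pattern of the targets was known when the members were chosen and is not independent of them.

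Partners of VHL in its ubiquitin ligase, with the enzymes that attach and recycle NEDD8 on its cullin, moved little: 1 was higher and 2 lower of 10 (edgeR), against 26.7% and 25.9% of all genes tested, with a median log2 fold change of -0.02. The adaptor elongin C, ELOC, went from 81.9 ± 2.80 to 71.7 ± 1.39 CPM (log2 fold change -0.19; SD, n = 3 each), and the scaffold CUL2 fell by 0.16 on the log2 scale. The other adaptor, elongin B, ELOB, rose by 0.14. These counts are unsteady, at 0 to 2 higher and 0 to 3 lower over the alternatives tried. Over the same alternatives, 3477 to 5125 of all genes were higher and 3458 to 4395 lower.

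Among 19 cofactors and modulators of HIF, 4 were higher and 10 lower (median log2 fold change -0.13), where 26.7% of all genes tested were higher and 25.9% lower. CITED2, which competes with HIF1A for the coactivators EP300 and CREBBP and is itself induced by hypoxia, went from 33.1 ± 1.81 to 53.8 ± 0.336 CPM (log2 fold change 0.70; SD, n = 3 each). Its relative CITED4 was also higher (0.64). Both coactivators were lower, CREBBP by a log2 fold change of -0.41 and EP300 by -0.32; these were named after their values were seen. WTIP, an LIM protein that can join VHL and the prolyl hydroxylases, had the largest change (1.47) at a low level, 1.48 ± 0.134 and 4.17 ± 0.869 CPM. Its far more abundant relative AJUBA went the other way, from 271.7 ± 7.98 to 175.6 ± 4.17 CPM (log2 fold change -0.63, edgeR adjusted p = 1.14e-11). The third relative, LIMD1, was not called (-0.09, edgeR adjusted p = 0.258); AJUBA and LIMD1 were named after their values were seen. FBXW7, a ubiquitin ligase subunit that can target HIF1A independently of oxygen, was lower (-0.73). The chaperones HSP90AA1 (-0.35) and HSP90AB1 (-0.47), which stabilise HIF1A, were lower too, and were likewise named after their values were seen.

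Other bHLH-PAS factors, some of which compete for or replace ARNT, went both ways, 3 higher and 3 lower of 9 tested (median log2 fold change 0.04; all genes tested, 26.7% higher and 25.9% lower); NPAS3, NPAS4 and SIM1 did not pass the filter. NPAS1 (0.93, at a low level), the clock factor ARNTL (0.53) and the dioxin receptor AHR (0.43) were higher. ARNTL2 went from 196.8 ± 11.8 to 139.5 ± 5.38 CPM (log2 fold change -0.50; SD, n = 3 each).

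Other oxygen-using dioxygenases, relatives of the EGLN enzymes and HIF1AN in their chemistry, were 9 higher and 9 lower of 30 (edgeR, median log2 fold change 0.08). These counts lie near the shares over all genes tested, 26.7% higher and 25.9% lower. The count higher was 16 with upper-quartile factors and 14 with cyclic loess. Over all genes, 5125 were higher with upper-quartile factors and 4273 with cyclic loess, against 4442 in the main fit. The collagen lysyl hydroxylase PLOD2 went from 115.1 ± 4.34 to 194.0 ± 1.76 CPM (log2 fold change 0.75; SD, n = 3 each). The histone demethylase KDM3A (0.75) and the collagen prolyl hydroxylase subunit P4HA1 (0.64) were also higher; both are among the 31 HIF targets as well. The DNA demethylase TET3 was lower (-0.54).

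Enzymes and carriers that set the supply of 2-oxoglutarate and ascorbate, which hydroxylases need, and of succinate and fumarate, which inhibit them, were 3 higher and 8 lower of 17 tested (median log2 fold change -0.07); SLC23A1 did not pass the filter. Over all genes tested, 26.7% were higher and 25.9% lower. The mitochondrial isocitrate dehydrogenase subunit IDH3A was lower (-0.76). IDH1 and IDH2, which make 2-oxoglutarate with NADP, were higher (0.63 and 0.77). The levels of IDH1 were 137.3 ± 3.23 and 212.6 ± 12.04 CPM (SD over 3 libraries). The succinate dehydrogenase subunits SDHA (-0.58), SDHB (-0.29) and SDHD (-0.21) and the fumarate hydratase FH (-0.46) were lower. The subunit SDHC (-0.04) was not called, and the assembly factor SDHAF1 (0.28) was higher. These SDH genes and FH were named after their values were seen.

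**Figure D5:**
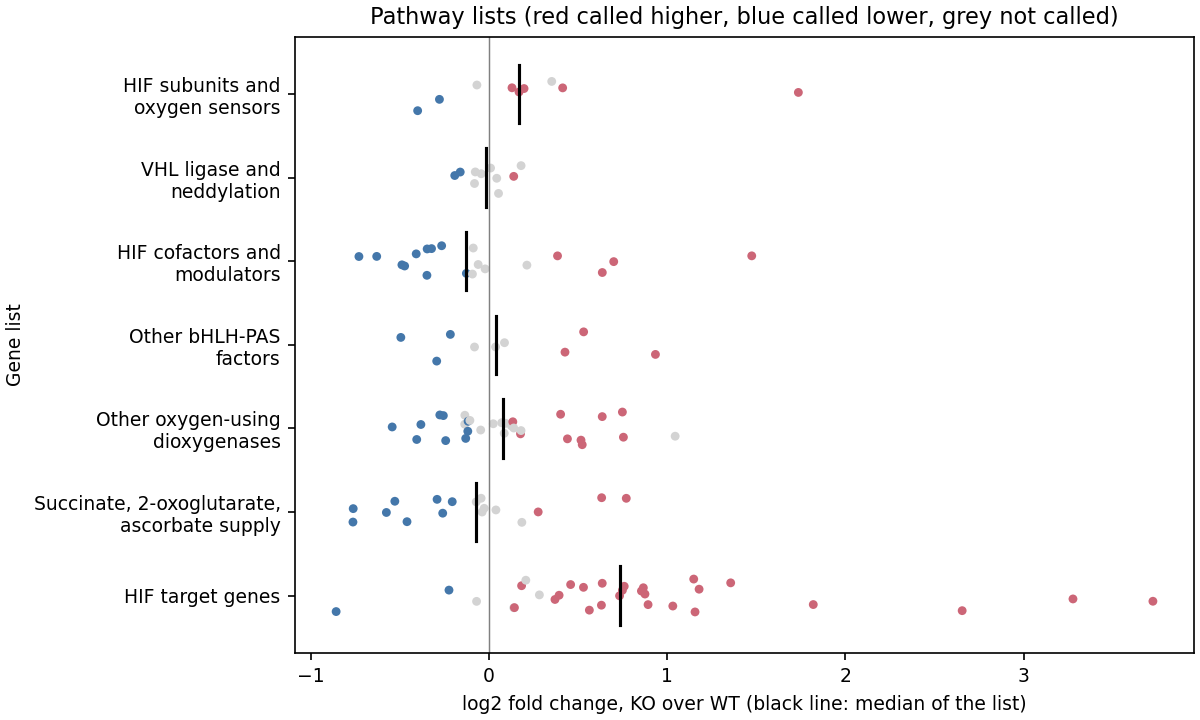
Log2 fold change (x axis, KO for knockout over WT, by label) of the tested genes of each list (y axis), with each dot a gene coloured by its call and the black line the list's median. The HIF target genes lie mostly to the right, with a median of 0.73, while the other lists lie on both sides of 0.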

How the data were processed

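RNA of 6 libraries of T3M4 cells was sequenced, 3 labelled WT and 3 labelled MUC16 knockout, grouped by title and genotype label. Per the labels' protocols, libraries were made with a NEBNext Ultra kit that leaves strand unmarked, so reads of overlapping genes on opposite strands cannot be told apart. The submitters' processing notes name DESeq, STAR, HISAT2 and fastp and the build GRCh38 (hg38); for versions, roles and the counting tool, nothing is given in the sources used here. The authors deposited raw read counts per gene and library, 19088927 to 28612621 in total, which were used as they stand. The log2 fold changes and adjusted p-values of the authors' deposited comparison table are quoted only as such; how its p-values were adjusted is not given. All 9 members have the same span as in GENCODE release 29.

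The test was edgeR 4.0.16 in R 4.3.3 (quasi-likelihood, two-sided, group as the only term, TMM factors, filterByExpr with a minimum count of 10 and a total of 15), with Benjamini-Hochberg adjustment over 16655 genes. Standard errors come from the quasi-likelihood F statistic. CPM is scaled by TMM factors, and shares use CPM divided by the gene length in the files. Chi-square per degree of freedom between libraries of a group was 2.44 to 6.17, and no library was taken as a duplicate. Members and lists were chosen with earlier results of these data known. Named genes are the members, MUC16, up to 4 called genes with the largest changes of each list, genes overlapping a member and the 3 genes most like each of the 2 most changed members. One gene that this rule names is not reported here. CREBBP, EP300, HSP90AA1, HSP90AB1, AJUBA, LIMD1, ADM, VEGFA, SDHA, SDHB, SDHC, SDHD, SDHAF1 and FH, outside the rule, were named after their values were seen. Cell type markers were named from a list. Alternatives were upper-quartile factors, DESeq2 1.42.0 and its size factors alone, no filter, a filter of 50 counts in 3 libraries, limma-voom and cyclic loess with limma 3.58.1, the replicate number as a block, a threshold of 0.01 and leaving out each library; shares were also taken without length.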

Additional observations from a re-analysis of the deposited data

How the results depend on the processing

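EGLN3, EGLN1, HIF1A and EPAS1 kept their direction and their call under all 15 alternatives tried, with log2 fold changes of 1.49 to 1.998, 0.36 to 0.49, 0.17 to 0.33 and -0.31 to -0.18. The 6 shares kept their direction under the 7 alternatives tried for them. VHL lost its call with no filter (log2 fold change 0.11) and with DESeq2 (0.12). At a threshold of 0.01, VHL (0.13), ARNT (0.17) and EGLN2 (-0.40) were not called, leaving 3 members higher and 1 lower. Of the 16655 genes tested, 3477 were higher and 3458 lower at that threshold. HIF1AN, not called in any of these settings, changed sign with cyclic loess (0.00883). Leaving out 1 library at a time gave 3 to 5 members higher and 1 to 2 lower. The same fits called 3980 to 4182 of all genes higher and 3872 to 4108 lower. The log2 fold changes were then 0.15 to 0.21 for ARNT, -0.45 to -0.31 for EGLN2 and 0.11 to 0.15 for VHL. In the list of VHL partners, 2 were higher and 1 lower with upper-quartile factors, 2 higher with the stricter filter, 0 lower with cyclic loess, and 0 higher and 1 lower at a threshold of 0.01; leaving out 1 library gave 0 to 2 higher and 1 to 3 lower. Other dioxygenases called higher were 16 with upper-quartile factors and 14 with cyclic loess. Over all genes, 5125 were higher and 3505 lower with upper-quartile factors. The stricter filter gave 3895 higher and 3808 lower, and cyclic loess 4273 and 4179. The causes of these differences were not tested.

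The numbers in the titles were not taken as pairs. Deviations from the group means correlated at 0.0116, 0.0205 and -0.024 for the same number, so no shared deviation was detected. These values cannot show whether libraries of the same number were handled together. With the replicate block, 4270 genes were higher and 4172 lower against 4442 and 4317 without it, and 5 members were higher and 2 lower, as without it (EGLN3 log2 fold change 1.77). Counts of HIF3A, at most 17 per library, and of EGLN2 limit what can be said of them.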
